A study of Mus musculus with 8 samples.

Results

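Rdm1 and 8 genes of homologous recombination were examined in mouse acute myeloid leukaemia (AML) cells exposed to the DHODH inhibitor AG636 in vivo. Rdm1 encodes a protein that carries a Rad52 motif, and it was selected on its own values here, namely the rise of its read count with AG636 in these 8 samples. Those values are therefore given as a description, with no test. The other 8 genes, Rad51ap1, Rad52, Rad54l, Brca1, Brca2, Palb2, Xrcc2 and Xrcc3, were picked around Rdm1 for their function. Together they are 9 of the 54838 genes in the count table.

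RNA was measured in 8 samples of AML cells of genotype RUNX1-RUNX1T1 and C57BL/6 background, 4 labelled Vehicle and 4 labelled AG636. RUNX1-RUNX1T1 is a fusion of a haematopoietic transcription factor with a repressor protein, found in core-binding factor leukaemia, and it is carried by both groups. Per the labels, the leukaemia had been transplanted into Ptprca mice after sub-lethal irradiation, although the methods of the study name irradiation only for its other models, and AG636 was given b.i.d. by gavage at 100 mg/kg. A figure legend of the study gives 1 day of treatment for this model and a cKit+ CD11b- gate for the sort, whereas the text of the study gives a cKit-high gate for it. DHODH catalyses a step of de novo pyrimidine synthesis. The labels name bone marrow and spleen without saying which sample came from which, and no age is given. They also do not say whether the 4 samples of a group are separate mice, and the legend gives fewer mice than samples, so the SDs and p-values below measure only the spread between these samples. The libraries read the 3′ end of polyadenylated RNA, so a count depends little on transcript length, and levels are compared here within a gene and not between genes. In such bulk samples, fewer cells of a type and less RNA per cell cannot be told apart.

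Homologous recombination repairs a broken chromosome by copying an intact sister. The broken end is trimmed to a single strand, and BRCA1 and PALB2 bring BRCA2 to it. A protein filament on that strand then searches for the matching sequence, RAD54L and RAD51AP1 help the strand invade, and RAD52 anneals single strands. The pathway acts mainly in S and G2 phase, when a sister chromatid is present. RDM1 has been linked to the cellular response to cisplatin.

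The libraries held 6120030 to 7162036 counts, and 10911 genes passed the filter on low counts. Among these, limma-voom, a linear model of log2 counts weighted by their precision, called 1523 genes at an adjusted p-value under 0.05, which is 14.0% (5.47% higher and 8.49% lower with AG636). In 22.2% of the tested genes the values of the 4 AG636 samples did not overlap those of the 4 Vehicle samples. Vehicle 4 stood apart from the other Vehicle samples, with a chi-square per degree of freedom of 8.52 to 12.0 against each of them, where the other Vehicle pairs had 3.69 to 4.27. Pairs of AG636 samples had 12.9 to 22.6. Of 12 progenitor markers, 7 passed the filter and 0 were called by limma-voom, edgeR or DESeq2 (2 at an unadjusted p under 0.05), and the summed level of the list ran from 925 to 1107 CPM (reads scaled to a common library size of 1000000) in Vehicle and from 1070 to 1264 CPM in AG636. Kit, the marker of the sort, had a mean of 163 CPM in Vehicle and 206 CPM in AG636. Myb and Gata2 were also present, but Hoxa9 had 0 counts in every sample, Cebpa at most 1 and Mpo at most 33. Of the mature myeloid list, Itgam, which encodes CD11b, had at most 4 counts, and the summed level was 59.3 to 117 CPM in Vehicle and 33.5 to 220 CPM in AG636. Erythroid markers were abundant, with a summed level of 2480 to 6250 CPM in Vehicle and 4867 to 6364 CPM in AG636. Of these 10, 8 had a positive fold change and 2 a negative one. By limma-voom 1 was called (the globin gene Hbb-bt, higher), and edgeR and DESeq2 each called 2 higher. With 1 sample left out, 0 to 4 were called higher, and 1 was called lower without AG636 2. Slc4a1 had 9.38 to 16.4 CPM in Vehicle and 13.6 to 59.0 CPM in AG636 (limma-voom adjusted p = 0.0501). B cell markers summed to 6.61 to 15.1 CPM in Vehicle and 12.0 to 25.3 CPM in AG636. T and NK cell markers summed to 5.32 to 10.5 CPM and 6.86 to 23.1 CPM. In each of these lymphoid lists limma-voom called 1 gene higher (Cd79a of 5 tested, Il7r of 2 tested), edgeR called 1 and DESeq2 0. With no filter on low counts, 0 were called in either list. Cd79a had 2 to 22 reads a sample and Il7r 5 to 26. Both genes passed the filter only through their AG636 samples. They were tested because they were high in AG636, so their calls cannot decide whether these genes differ between the groups. The part of these other cell types in the results below was not tested.

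Rdm1 was several-fold more abundant in every AG636 sample than in any Vehicle sample. The gene (ENSMUSG00000010362) lies on the plus strand of GRCm38 at chr11:101627195-101636100. Vehicle samples 1 to 4 held 45, 62, 44 and 48 reads of Rdm1, and AG636 samples 1 to 4 held 195, 190, 235 and 312 reads. Scaled to the TMM-adjusted library size, these were 6.56, 9.53, 6.81 and 7.30 CPM in Vehicle and 30.3, 30.3, 37.5 and 45.1 CPM in AG636. The lowest AG636 sample was thus more than 3 times the highest Vehicle sample. The means were 7.55 ± 1.36 CPM in Vehicle and 35.8 ± 7.05 CPM in AG636 (SD, n = 4 each), a ratio of 4.74. The fitted log2 fold change was 2.24 (SE 0.21).

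The size of the Rdm1 difference changed little with the handling of the counts. Over 16 alternative fits (other tools, scalings and filters, a replicate block, and single samples left out) its log2 fold change lay between 2.13 and 2.35, the former without AG636 4 and the latter without Vehicle 2. Without Vehicle 4, the library that stood apart, it was 2.24. Ranked by fold change, Rdm1 was in place 14 among the 10911 tested genes. It was in place 1 among the 7090 tested genes with a mean level at least as high as its own, a mean that includes its raised AG636 values. Rdm1 was selected for this rise, so both places are a description only. In GENCODE M21, Rdm1 has 5 transcripts, of which 1 is coding, and they end at 5 different 3′ positions. Counts per gene do not tell these transcripts apart, so the share of the rise that belongs to the coding transcript was not measured.

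**Figure D1:**
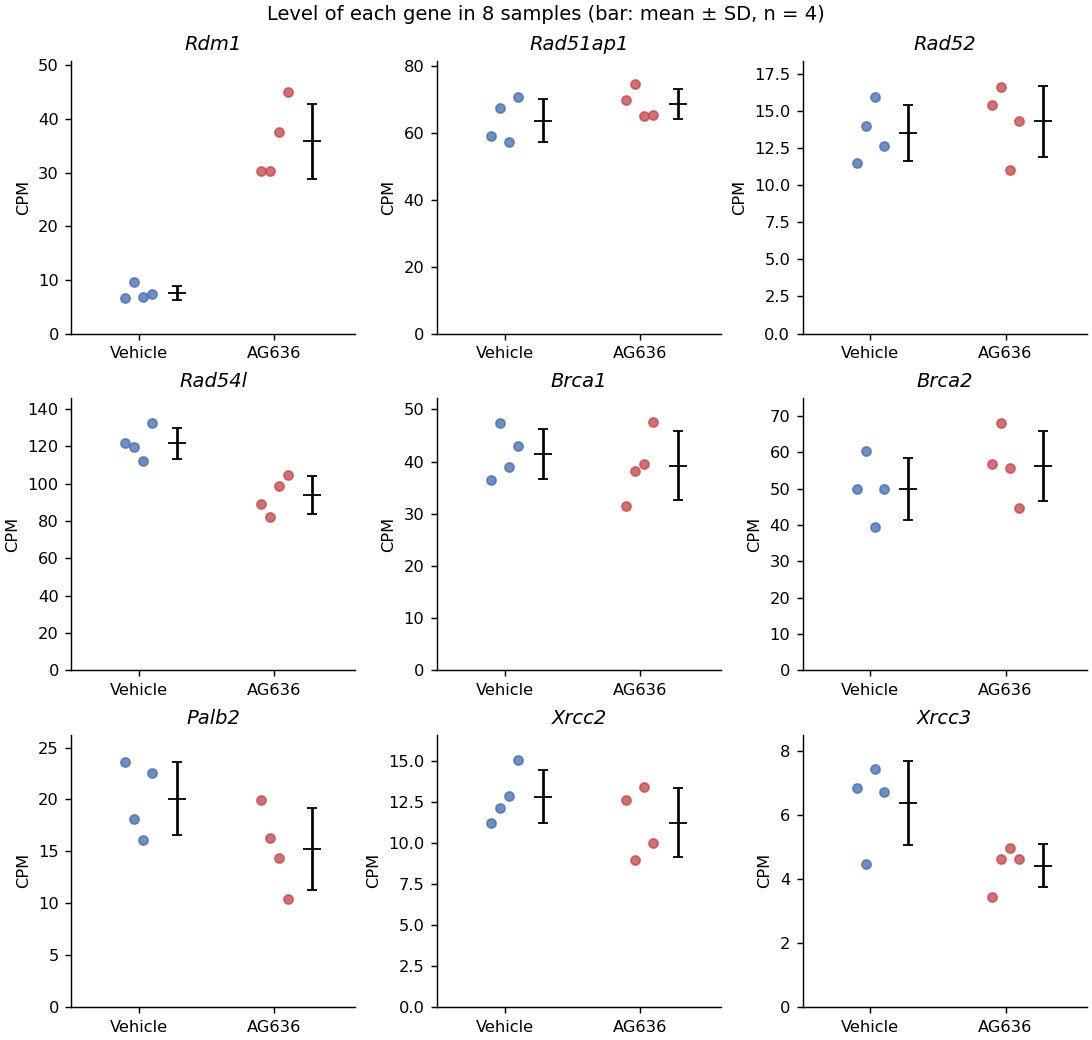
Level of the 9 genes in each sample, in CPM on axes that start at 0, with Vehicle samples in blue and AG636 samples in red and the mean ± SD of 4 samples beside them as a black bar. Rdm1 ran from 6.56 to 9.53 CPM in Vehicle and from 30.3 to 45.1 CPM in AG636, Rad54l was lower in all 4 AG636 samples, and the groups of the other 7 genes overlapped.

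Among the 8 genes of the recombination pathway, 1 was called, and it was lower with AG636. This is to be read against the 14.0% of all tested genes that were called and the 8.49% that were called lower. All 8 passed the filter, 3 had a positive fold change and 5 a negative one, and the median log2 fold change was -0.14, where that of all tested genes was -0.01. The groups did not overlap in 1 of the 8, beside 22.2% of all tested genes. The list was chosen with earlier results of these data known.

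Rad54l was the gene called. It encodes a translocase of the SWI/SNF family that works during strand invasion, and it lies on the minus strand at chr4:116094264-116123690. Its levels were 121.9, 119.6, 112.2 and 132.7 CPM in Vehicle samples 1 to 4 and 89.1, 81.9, 98.9 and 104.8 CPM in AG636 samples 1 to 4. All 4 AG636 samples were below all 4 Vehicle samples, with the highest AG636 sample close to the lowest Vehicle sample. The mean fell from 121.6 ± 8.47 to 93.7 ± 10.2 CPM (SD, n = 4 each), a ratio of 0.770. The log2 fold change was -0.38 (SE 0.10, 95% interval -0.59 to -0.16, limma-voom adjusted p = 0.0280 over all genes tested).

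The call on Rad54l was lost when most single samples were left out. The limma-voom adjusted p was 0.0748 without Vehicle 1, 0.0648 without Vehicle 2, 0.0526 without Vehicle 3, 0.0818 without Vehicle 4, 0.0685 without AG636 1 and 0.0542 without AG636 2. It held without AG636 3 (adjusted p = 0.0284) and without AG636 4 (0.0204). With libraries scaled by their size alone the adjusted p was 0.0799. The sign was negative in all 16 alternatives, with a log2 fold change between -0.42 and -0.31, and the adjusted p ran from 0.0118 to 0.0818. Rad54l also shares 1184 exon bases with Lrrc41 on the opposite strand, in a stretch that begins 613 bases from the 3′ end of Rad54l, and whether strand was used in the counting is not given in the sources used here. Lrrc41 held 1311 reads in all against 5643 of Rad54l, and its log2 fold change was -0.01 (limma-voom adjusted p = 0.964).

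Brca1, Brca2 and Palb2, which act together after resection, were not called. Brca1, whose product pairs with BARD1 as a ubiquitin ligase and favours end resection, had 36.6, 47.5, 39.0 and 43.1 CPM in Vehicle and 31.4, 38.2, 39.6 and 47.6 CPM in AG636. These ranges overlapped almost fully, and the log2 fold change was -0.09 (SE 0.14, 95% interval -0.39 to 0.21, limma-voom adjusted p = 0.706). It changed sign, to 0.01, without AG636 1. Brca2, a mediator of recombination on single-stranded DNA, had 50.0, 60.4, 39.5 and 49.7 CPM in Vehicle and 56.8, 68.0, 55.5 and 44.5 CPM in AG636, and again the groups overlapped. Its log2 fold change was 0.17 (SE 0.15, 95% interval -0.17 to 0.50, limma-voom adjusted p = 0.496). It was 0.06 without Vehicle 3, 0.07 without AG636 2, 0.26 without Vehicle 2 and 0.29 without AG636 4.

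Palb2, which bridges BRCA1 and BRCA2, had 23.6, 18.1, 16.1 and 22.5 CPM in Vehicle and 19.9, 16.3, 14.4 and 10.4 CPM in AG636. AG636 4 was the lowest sample, and the other 3 AG636 samples lay within or just under the Vehicle range. The log2 fold change was -0.43 (SE 0.20, 95% interval -0.88 to 0.02, limma-voom adjusted p = 0.183), and it was -0.23 without AG636 4. These 3 genes lie at chr11:101488764-101551955 (Brca1, minus strand), chr5:150522630-150570329 (Brca2, plus strand) and chr7:122107262-122132985 (Palb2, minus strand).

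Xrcc2 and Xrcc3, whose products sit in different complexes that support strand exchange, were at low counts and were not called. Xrcc2 (chr5:25689812-25705825, minus strand) had 11.2, 12.1, 12.8 and 15.1 CPM in Vehicle and 12.6, 8.94, 13.4 and 9.97 CPM in AG636, with a log2 fold change of -0.20 (SE 0.18, 95% interval -0.59 to 0.18, limma-voom adjusted p = 0.477). Over the 16 alternatives that of Xrcc2 ran from -0.29 to -0.10, the latter without Vehicle 4 or without AG636 2. Xrcc3 (chr12:111803192-111813873, minus strand) had 22 to 48 reads a sample, which were 6.85, 4.46, 7.43 and 6.69 CPM in Vehicle and 3.42, 4.63, 4.95 and 4.63 CPM in AG636. Vehicle 2 lay among the AG636 samples, while the other 3 Vehicle samples lay above all of them. The log2 fold change of Xrcc3 was -0.51 (SE 0.24, 95% interval -1.03 to 0.01, limma-voom adjusted p = 0.172), so at this depth a fall of about 1 log2 unit and no difference were both within the interval. Xrcc3 shares 12 exon bases with Klc1, a kinesin light chain gene on the opposite strand. The shared stretch begins 4641 bases from the 3′ end of Xrcc3. Klc1 held 4082 reads in all against 282 of Xrcc3, and its log2 fold change was 0.19 (limma-voom adjusted p = 0.193).

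Rad51ap1 and Rad52 had small positive differences that did not pass the test. Rad51ap1 (chr6:126923050-126939587, minus strand), whose product binds DNA and promotes strand pairing, had 59.3, 67.6, 57.4 and 70.9 CPM in Vehicle and 69.8, 74.7, 65.3 and 65.5 CPM in AG636. The log2 fold change was 0.11 (SE 0.10, 95% interval -0.10 to 0.33, limma-voom adjusted p = 0.477), so a rise above 0.33 lay outside the interval. Over the 16 alternatives it ran from 0.06, without Vehicle 3, to 0.18, without Vehicle 4 or with library size alone. Rad52 (chr6:119902698-119922828, plus strand), the annealing protein whose motif Rdm1 is named for, had 11.5, 14.0, 15.9 and 12.6 CPM in Vehicle and 15.4, 16.6, 11.0 and 14.3 CPM in AG636. AG636 held both the lowest and the highest of the 8 samples, and the log2 fold change was 0.08 (SE 0.17, 95% interval -0.29 to 0.46, limma-voom adjusted p = 0.783). For Rad52 it ran from 0.0031, without Vehicle 1, to 0.20, without AG636 3.

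The wider recombination pathway held 3 calls among 48 tested genes. Over 4 lists of its other genes (strand exchange, end resection and RPA, BRCA1 partners, junction resolution), 48 of 50 genes passed the filter, of which 1 was called higher and 2 lower, 6.25% in all against the 14.0% of all tested genes. Their median log2 fold change was -0.02. The balance and the number of these calls changed with the method. They were 4 higher and 1 lower with library size alone, which called 1489 of all 10911 tested genes. With DESeq2, which called 1961 of all tested genes, they were 4 higher and 3 lower. With 1 sample left out they were 0 to 2 higher and 1 to 3 lower. In the strand exchange list, Parpbp, a restraint on recombination, rose from 15.6 ± 2.40 to 23.4 ± 4.31 CPM (log2 fold change 0.58, limma-voom adjusted p = 0.0420). BC055324 (Firrm), whose product is a partner of FIGNL1, fell by 0.34 on the log2 scale (adjusted p = 0.0245). In the resection list, the nuclease and helicase gene Dna2 fell from 54.2 ± 2.86 to 35.3 ± 3.86 CPM (log2 fold change -0.62, limma-voom adjusted p = 0.00481). The lists of BRCA1 partners and of junction resolution held 0 limma-voom calls among 8 and 9 tested genes. At an unadjusted p under 0.05 these lists held 1 and 0 genes, and edgeR and DESeq2 each called 1 and 0. The strand exchange list had 0 calls without Vehicle 2, 3 or 4 and with no filter on low counts, while the resection list had at least 1 gene called lower whichever sample was left out.

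Also in the strand exchange list, Rad51b and Rad51c were at low levels, with log2 fold changes of 0.05 and 0.22 and limma-voom adjusted p-values of 0.927 and 0.719. Rad51d had 21.5 ± 1.57 CPM in Vehicle and 27.8 ± 3.02 CPM in AG636, with no overlap between the groups and a log2 fold change of 0.37 (limma-voom adjusted p = 0.0643). The meiotic gene Dmc1 had 0 counts in all samples.

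Other repair lists held 2 calls each. These were 12.5% (Fanconi anaemia), 11.8% (end joining) and 11.1% (damage signalling) of the genes tested, beside 14.0% of all tested genes. Of all tested genes, 5.47% were called higher and 8.49% lower. Of 16 tested Fanconi anaemia genes, Faap20 was called higher (log2 fold change 0.43, limma-voom adjusted p = 0.0373) and Fancm, a translocase that acts on stalled forks, lower (-0.56, adjusted p = 0.0146). Of 17 end joining genes, 0 were called higher and 2 lower, namely Trp53bp1 (-0.42, adjusted p = 0.0424) and Rif1 (-0.25, adjusted p = 0.0484), both of which protect ends from resection. Of 18 genes of damage signalling, the mediator gene Mdc1 was called higher (0.59, limma-voom adjusted p = 0.00737) and Atrip, the partner of the kinase ATR, lower (-0.43, adjusted p = 0.0351). The median log2 fold changes of the 3 lists were 0.11, -0.11 and -0.11. The call on Faap20 was lost with no filter and with any 1 Vehicle sample, AG636 1 or AG636 2 left out. With any 1 Vehicle sample, AG636 1 or AG636 3 left out, 0 genes of the end joining list and 0 genes of the damage signalling list were called lower. The same held with library size alone and with no filter, and with RLE factors for the end joining list.

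**Figure D2:**
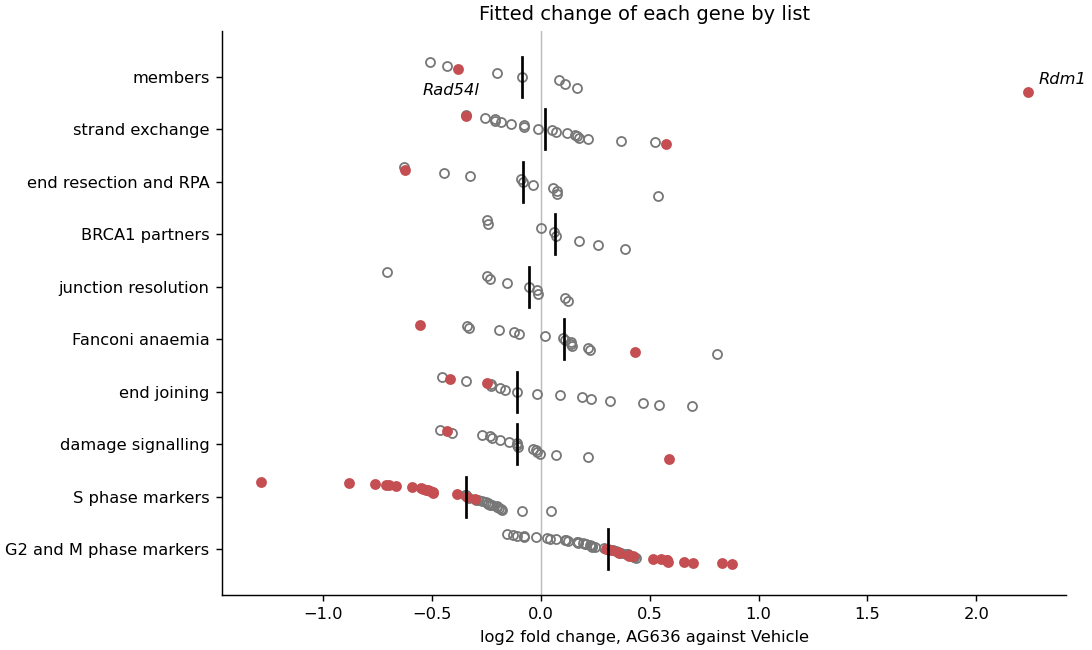
Fitted log2 fold change (AG636 against Vehicle) of each tested gene, in 1 row per list, with filled red points for an adjusted p under 0.05, open grey points for the rest and a black line at the list's median. Rdm1, which was selected for its rise, stands at 2.24, while the other recombination genes lie on both sides of 0, the S phase markers lie mostly below 0 and the G2 and M phase markers mostly above it.

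Markers of the cell cycle differed between the groups. Of 36 S phase markers, 17 were called lower and 0 higher, with a median log2 fold change of -0.34, where 8.49% of all tested genes were called lower. Among them were Cdca7 (-1.29), the uracil glycosylase gene Ung (-0.88) and the replicative helicase genes Mcm5 (-0.66) and Mcm4 (-0.50). Their summed level ran from 5727 to 6080 CPM in Vehicle and from 4092 to 5214 CPM in AG636, with no overlap, as for Rad54l. Of 51 G2 and M phase markers, 17 were called higher and 0 lower, with a median of 0.31, beside 5.47% of all tested genes called higher, and their sums overlapped slightly (12038 to 15091 CPM in Vehicle and 14716 to 16279 CPM in AG636). The overlap came from Vehicle 4, at 15091 CPM, as the other Vehicle samples had 12038 to 13167 CPM. The G2 and M phase markers called included the microtubule genes Psrc1 (0.88) and Gas2l3 (0.83), Gtse1 (0.70) and the kinetochore gene Cenpf (0.51). The numbers called ranged from 10 to 22 for S phase and from 5 to 28 for G2 and M phase over the 17 fits, with 0 in the opposite direction in each. S phase calls were 11 without Vehicle 1, Vehicle 4 or AG636 1, 10 without Vehicle 3 and 22 without AG636 4. G2 and M phase calls were 5 without Vehicle 1 or Vehicle 3, 7 without Vehicle 2 or AG636 1 and 24 without Vehicle 4. The part of the cell cycle in the levels of Rad54l and the other recombination genes was not tested.

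**Figure D3:**
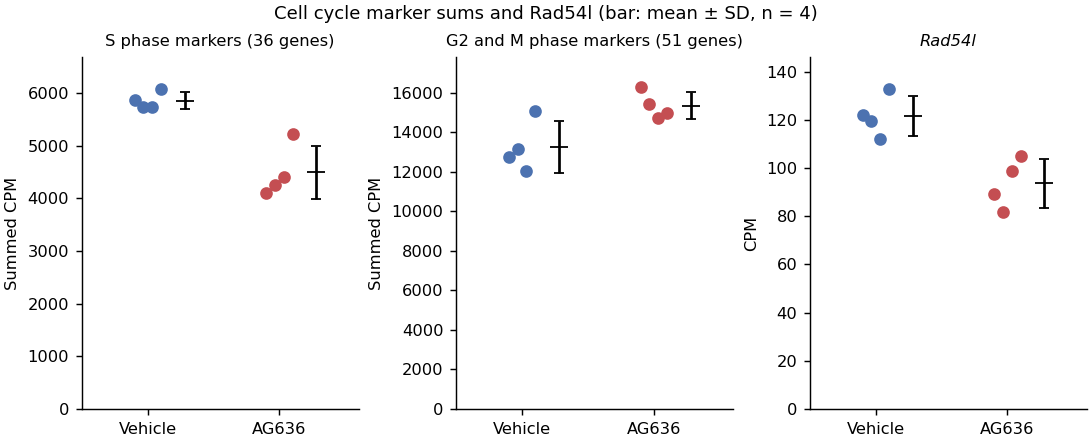
Summed CPM of the S phase markers (36 genes), of the G2 and M phase markers (51 genes) and the CPM of Rad54l in each sample, on axes that start at 0, with the mean ± SD of 4 samples as a black bar. The S phase sum and Rad54l were lower in all 4 AG636 samples than in any Vehicle sample, whereas the G2 and M phase sums of the groups overlapped through Vehicle 4.

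Promoter sequences of 7 of the 9 genes were matched in RefSeq (GRCm38.p6), which left out Rdm1 and Xrcc2. Windows of 300 bases around the start were searched on both strands for letters linked with the cell cycle, a choice made after the values above were seen. The E2F letters (TTTCGCGC, TTTGGCGC, TTTCCCGC or TTTGCCGC) were found in 1 of the 7, Brca2, and in 2.32% of 27025 promoters. The CHR letters (TTTGAA or TTCGAA) were found in 0 of the 7 and in 19.4% of all promoters. The CCAAT box was found in 5 of the 7 (Rad51ap1, Rad54l, Brca1, Palb2 and Xrcc3) and in 37.9% of all promoters. None of these letter sets contains another, and a match is a description of the letters and not a bound site. The 250 bases upstream of the start are shown, 5′ to 3′ along the gene, for the called gene Rad54l (chr4:116123691-116123940, minus strand), with its CCAAT box in capitals at 50 bases before the start, and for Brca2 (chr5:150522371-150522620, plus strand), with the reverse complement of TTTCCCGC in capitals at 168 bases before the start.
Rad54l: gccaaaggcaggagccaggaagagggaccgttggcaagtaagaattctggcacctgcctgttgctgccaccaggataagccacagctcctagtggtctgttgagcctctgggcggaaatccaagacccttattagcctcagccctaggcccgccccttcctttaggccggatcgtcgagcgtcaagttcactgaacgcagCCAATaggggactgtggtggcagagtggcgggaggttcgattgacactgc
Brca2: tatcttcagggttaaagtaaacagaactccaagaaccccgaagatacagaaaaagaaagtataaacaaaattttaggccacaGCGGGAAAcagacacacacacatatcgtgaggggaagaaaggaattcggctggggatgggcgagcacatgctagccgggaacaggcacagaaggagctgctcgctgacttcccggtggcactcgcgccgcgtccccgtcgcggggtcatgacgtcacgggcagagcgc
Of the gene pair shown, Rad54l fell and Brca2 was not called.

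Rdm1 and Brca1 lie 75240 bases apart on chromosome 11, so the genes around Rdm1 were examined. Within 250 kb of Rdm1 the table held 25 other genes, of which 14 passed the filter and 0 were called by limma-voom, edgeR or DESeq2, with 0 also at an unadjusted p under 0.05, beside 14.0% of all tested genes. Their log2 fold changes ran from -0.86 to 0.19, with a median of -0.17. On the Brca1 side, Tmem106a, 35407 bases away, had a log2 fold change of 0.19 (SE 0.40), and the autophagy receptor gene Nbr1, 45244 bases away, had 0.15 (SE 0.11). On the other side, Gm23971, 9640 bases away, had 0.19 (SE 0.36), the small GTPase gene Arl4d, 29441 bases away, had -0.35 (SE 0.22) and the RNA helicase gene Dhx8, 96819 bases away, had 0.08 (SE 0.13). Gm23849 lies within the span of Rdm1 on the same strand but shares 0 exon bases with it. It held 101 reads in all, with a log2 fold change of -0.86 (SE 0.41, limma-voom adjusted p = 0.185).

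**Figure D4:**
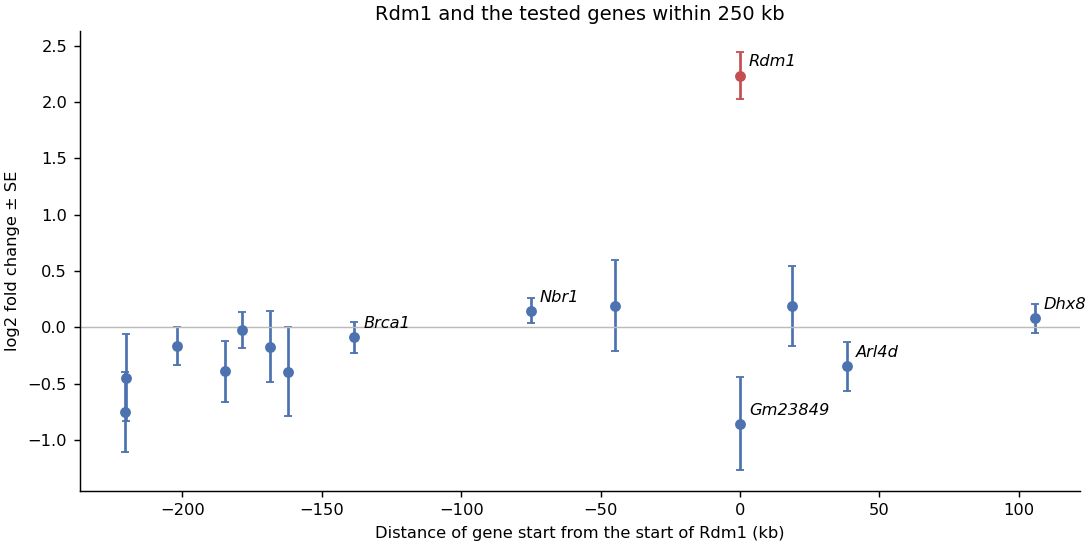
Log2 fold change ± SE of Rdm1 (red) and of the 14 tested genes within 250 kb (blue) against the distance of each gene's start from the start of Rdm1, in kb. Rdm1 stands at 2.24, and its neighbours lie between -0.86 and 0.19.

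The 5 tested genes with the pattern most like that of Rdm1 over the 8 samples were sought by the root mean square difference of log2 CPM, each gene centred on its own mean. They were mt-Tm (0.22), the histone H2B gene Hist2h2be (0.30), Gm26916 (0.38), Gm12758 (0.38) and mt-Ti (0.40). mt-Tm and mt-Ti encode mitochondrial transfer RNAs, and reads of mitochondrial genes may be shared with nuclear copies. The libraries read polyadenylated RNA, and which form of RNA gave the reads of mt-Tm, mt-Ti and Hist2h2be was not measured. mt-Tm had 10.4 ± 1.27 CPM in Vehicle and 47.6 ± 15.4 CPM in AG636, and mt-Ti had 9.11 ± 1.35 and 42.2 ± 16.2 CPM. Hist2h2be had 23.5 ± 3.37 CPM in Vehicle and 79.0 ± 8.73 CPM in AG636. Gm26916 never exceeded 19 reads and Gm12758 never exceeded 44. Gm26916 had 0.15 to 0.58 CPM in Vehicle and 1.91 to 2.95 CPM in AG636, so it passed the filter only through its AG636 samples. The 8 recombination genes were much less alike, with differences of 1.06 (Brca2) to 1.39 (Xrcc3), so that their order among the 10911 tested genes ran from 3188 to 9993. These likenesses follow the group difference that Rdm1 was selected for and are a description.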

How the data were processed

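The authors deposited raw read counts per gene. Per the labels and the methods of the study, RNA of sorted cells was made into libraries with a QuantSeq 3′ mRNA kit, and reads were trimmed with cutadapt (1.9.1), mapped with HISAT2 (2.0.4) to mm10 (GRCm38) and counted with featureCounts (Subread 1.5.0-p3), the versions being those of the submitters' processing notes. The strand setting and the treatment of reads at several places are not given in the sources used here. Symbols were matched for 54723 of 54838 genes.

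Genes were kept by filterByExpr (minimum count 10), library sizes were multiplied by TMM factors from edgeR 4.0.16, and the 2 groups were compared with voom weights in limma 3.58.1 (R 4.3.3), with no other term in the model, two-sided, with Benjamini-Hochberg adjustment over all 10911 genes tested and a threshold of 0.05. CPM are counts scaled to 1000000 reads of the TMM-adjusted library. The alternatives were DESeq2 (1.42.0), the quasi-likelihood test of edgeR, limma-trend, sample quality weights, RLE factors, library size alone, no filter, the replicate number as a block, and each sample left out in turn. The script was tested on simulated data in which 200 genes were changed. Overlaps with other genes were read from the exon coordinates in the count table, and transcripts and their 3′ ends from GENCODE M21.

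The members and lists were chosen with earlier results of these data known. The genes named are the members, up to 4 called genes of smallest p in each pathway list, Rad51b, Rad51c and Rad51d, neighbours of Rdm1, and the 5 genes most like it. No protein sequences were used here. Some values examined are not reported here.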

Additional observations from a re-analysis of the deposited data

How the results depend on the processing

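Of the 9 genes, Rdm1, Rad51ap1, Rad52, Rad54l, Brca2, Palb2, Xrcc2 and Xrcc3 kept their direction under all 16 alternatives. Brca1 turned to 0.0115 without AG636 replicate 1, and its log2 fold change ran from -0.17 to 0.01 over the samples left out. The number of members other than Rdm1 called was 1 in the main comparison, 0 with library size alone (Rad54l, adjusted p = 0.0799) and 0 to 1 with 1 sample left out. Genes called over the whole table ranged from 688 to 1706 with 1 sample left out, against 1523. With library size alone, 918 genes were called higher and 571 lower, so that 38.3% of calls were lower, against 60.8% with TMM factors. Fitted with a replicate block, 1446 genes were called, Rdm1 had a log2 fold change of 2.24 and Rad54l kept its call (limma-voom adjusted p = 0.0323). With that block the strand exchange list had 0 calls and the end joining list 1. Same-numbered deviations from the group means correlated at -0.14, 0.01, 0.20 and 0.14, and not every sample correlated best with its own number. These correlations cannot show whether same-numbered samples share more than a number. The cause of these differences was not tested. Xrcc3 had the fewest reads, 22 to 48 a sample, which limits its precision. Samples that share a mouse would make the p-values too small.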
